A study of Homo sapiens with 4 samples.

Results

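The IGF binding proteins and IGF receptors are 9 genes (IGFBP2, IGFBP3, IGFBP4, IGFBP5, IGFBP6, IGFBP7, IGF1R, IGF2R and INSR) of the 19568 genes measured, chosen by their symbols. All 9 had a row in 3 of the 4 plates, and 8 of the 9, without IGFBP5, had one in high-resolution plate 1. The cells were MCF10A, an established line of untransformed human mammary epithelial cells, here carrying an H2B-GFP marker. Per patch, 10000 cells were seeded as a circle on fibronectin and grown for 6 days in a medium that all 4 patches shared, whose additions included insulin (10 μg/ml), EGF (20 ng/ml), cholera toxin (100 ng/ml), hydrocortisone (500 ng/ml) and 5% equine serum. In the low-resolution experiment 2 patches were phototagged in rings 1000 to 1500 μm wide, and in the high-resolution experiment 2 patches were phototagged in bands of 250 μm at the edge. Live single cells of each patch were sorted into 1 plate of 384 wells for SORT-seq, which counts polyadenylated transcripts with unique molecular identifiers (UMIs). The tagged region a cell came from was not analysed here. Every value is therefore for the cells of a whole plate, and the plate is the replicate.

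The IGFs and insulin are secreted growth signals that act through the receptor tyrosine kinases IGF1R and INSR, while IGF2R takes IGF2 up for breakdown and also carries lysosomal enzymes. IGF binding proteins hold IGFs outside the cell, and several of them also bind the cell surface or the matrix. IGFBP proteases, such as PAPPA, release the IGFs again. Epithelial-mesenchymal transition (EMT) is a loss of epithelial features such as CDH1 (E-cadherin) and EPCAM and a gain of mesenchymal ones such as VIM (vimentin) and FN1 (fibronectin).

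In GENCODE v29 (GRCh38), IGFBP2 lies on chr2:216632828-216664436 on the plus strand and IGFBP5 on chr2:216672105-216695525 on the minus strand, with 7668 bases between their ends. IGFBP3 lies on chr7:45912245-45921874 (minus), IGFBP4 on chr17:40443461-40457731 (plus), IGFBP6 on chr12:53097436-53102345 (plus) and IGFBP7 on chr4:57030773-57110385 (minus). The receptor genes are longer, with IGF1R on chr15:98648539-98964530 (plus), IGF2R on chr6:159969099-160113507 (plus) and INSR on chr19:7112255-7294034 (minus). IGFBP7 overlaps POLR2B, UBE2CP3 and IGFBP7-AS1 on the other strand, IGF2R overlaps AIRN, and IGFBP5 and IGF1R overlap antisense genes too. The sources used here do not say whether counting used strand, and without it the reads of such pairs cannot be told apart. Counts were per gene, with no exon or UTR given.

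The RefSeq promoter table (GRCh38.p14, 250 bases before to 50 after a start) held 8 of the 9 genes. The promoters of 3 binding proteins are shown because their levels differed with the EMT score, IGFBP3 in one direction and IGFBP4 and IGFBP6 in the other. They span chr7:45921223-45921522 (minus), chr17:40443200-40443499 (plus) and chr12:53097417-53097716 (plus), and run 5′ to 3′ along the gene. Capitals mark CAGGTG or its reverse complement CACCTG, the E-box that EMT repressors such as ZEB1 and SNAI2 are known to bind, and TATAAA or its reverse complement TTTATA, the core of a TATA box.
IGFBP3: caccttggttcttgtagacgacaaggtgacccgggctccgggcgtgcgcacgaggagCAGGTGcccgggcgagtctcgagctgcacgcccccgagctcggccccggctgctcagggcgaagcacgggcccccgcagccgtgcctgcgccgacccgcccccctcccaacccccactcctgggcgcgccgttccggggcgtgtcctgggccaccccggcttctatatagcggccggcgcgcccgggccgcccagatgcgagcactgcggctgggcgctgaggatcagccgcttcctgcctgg
IGFBP4: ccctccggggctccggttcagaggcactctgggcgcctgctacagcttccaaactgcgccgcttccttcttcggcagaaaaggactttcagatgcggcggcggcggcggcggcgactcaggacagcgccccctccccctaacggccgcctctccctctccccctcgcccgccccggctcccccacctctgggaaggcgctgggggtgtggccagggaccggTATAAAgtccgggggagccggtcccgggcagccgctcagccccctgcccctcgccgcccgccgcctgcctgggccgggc
IGFBP6: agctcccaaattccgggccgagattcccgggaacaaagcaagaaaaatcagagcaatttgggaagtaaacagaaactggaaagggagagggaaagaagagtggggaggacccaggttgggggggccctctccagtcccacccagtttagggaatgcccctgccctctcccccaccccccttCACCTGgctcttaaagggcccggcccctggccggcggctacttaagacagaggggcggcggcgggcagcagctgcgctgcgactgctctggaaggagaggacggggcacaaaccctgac
The IGFBP3 and IGFBP6 promoters each held 1 E-box, IGFBP4 held none, and the IGFBP4 promoter held a TATAAA. Of 35116 promoters of this length, 20.6% held the E-box on either strand and 11.5% held TATAAA. The letters are a description of the sequence, and no binding was measured. Of the other members, IGF2R and 1 of the 3 starts listed for IGFBP2 held the E-box, and IGFBP5, IGF1R and INSR did not.

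After the study's filter, 1146 of 1536 wells were kept, with 271 to 293 cells per plate. Plates held 11709628 to 14992348 transcripts over all 384 wells, spike-in rows included. In the kept cells the medians were 30111 to 40890 transcripts per cell and 28.4% to 31.2% mitochondrial counts. By their names, low-resolution plate 1 was sequenced on a flow cell of its own and the remaining 3 plates shared 1, and all plates used the same 384 well barcodes. Epithelial markers were present on every plate, from KRT5 (16.9 to 21.6 counts per 10000 counts of a cell) to TP63 (0.00757 to 0.0123), whereas the other cell types' markers COL1A2, PDGFRA, PDGFRB, CDH5, VWF, PTPRC and CD3E stayed at or below 0.00586. Of the rest of those lists, DCN and LYZ reached 0.0530 and 0.0314, and COL1A1, CD68 and PECAM1 were at 0.0647 to 0.0898, 0.0708 to 0.0886 and 0.128 to 0.223. ESR1, a marker of hormone-sensing luminal cells, was at 0.00372 to 0.0129 and so overlapped TP63. PGR, another such marker, stayed at or below 0.000927.

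Levels are means over the cells of a plate, in counts per 10000 counts of the cell. Values for the plates are given in the order low-resolution plate 1, low-resolution plate 2, high-resolution plate 1 and high-resolution plate 2. SORT-seq counts the 3′ end of a molecule once whatever its length, so levels were set side by side without division by length, and capture may still differ between genes.

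Among the binding proteins, IGFBP3, the main carrier of IGFs in blood, had the highest mean level, at 1.05, 0.997, 0.352 and 0.563. IGFBP6, which prefers IGF2, followed at 0.228, 0.262, 0.329 and 0.305. By this mean over cells IGFBP3 was above IGFBP6 on every plate, but on high-resolution plate 1 the order turned when counts were summed over cells before scaling (0.269 for IGFBP3 and 0.322 for IGFBP6).

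IGFBP4, a target of PAPPA, reached 0.0791, 0.0601, 0.0927 and 0.0864. IGFBP7, a secreted relative with weak affinity for IGFs, reached 0.0296, 0.0114, 0.0776 and 0.103, and IGFBP2 0.0347, 0.0375, 0.0277 and 0.0404. The order of these 3 depended on the plate, since IGFBP7 was the lowest of them on both low-resolution plates and above IGFBP2 on both high-resolution plates. IGFBP5 gave 7, 1, 0 and 1 UMIs, and the 0 of 291 cells in high-resolution plate 1 allows up to 1.26% of cells with a UMI (exact 95% interval, counting error only), which does not limit the share of cells that express the gene.

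Of the receptors, IGF2R stood highest at 0.432, 0.361, 0.344 and 0.345, followed by IGF1R at 0.179, 0.177, 0.213 and 0.1995 and INSR at 0.120, 0.120, 0.132 and 0.102. The ranges of the 3 receptors over plates did not overlap. Over all members, IGFBP3 overlapped IGF2R in range, and IGFBP7 overlapped INSR, IGFBP4, IGFBP2 and IGFBP5. IGF2R, IGFBP6, IGF1R, INSR, IGFBP4, IGFBP2 and IGFBP5 followed each other without overlap. The ratio of IGF1R to INSR UMIs was 1.70, 1.51, 1.60 and 2.18.

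**Figure D1:**
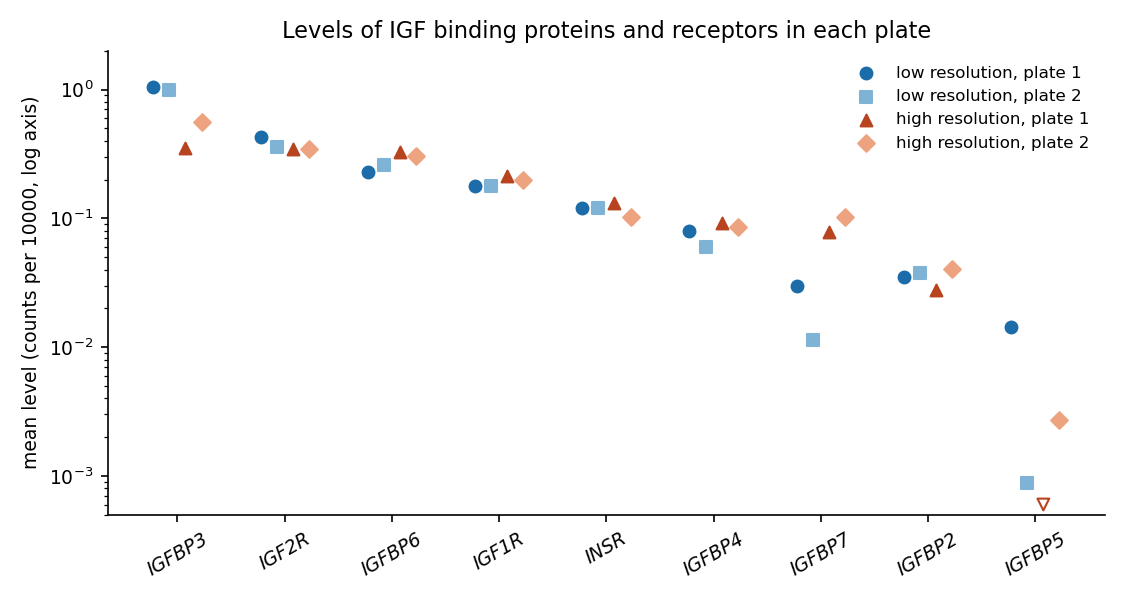
Mean level of each gene (counts per 10000, log axis) on each of the 4 plates, ordered by the mean over plates; the open triangle marks the 0 of IGFBP5. IGFBP3 spans 0.352 to 1.05 with both low-resolution plates on top, IGFBP7 spans 0.0114 to 0.103 with both high-resolution plates on top, and the 3 receptors stay between 0.102 and 0.432.

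Cells with at least 1 UMI made up 67.01%, 73.1%, 46.05% and 53.6% of cells for IGFBP3 and 40.5%, 46.5%, 61.2% and 59.7% for IGFBP6. For IGF2R the shares were 69.4%, 66.1%, 64.9% and 68.9%. Plates differed in depth, and in cells thinned to 10000 UMIs the shares were 48.1%, 46.3%, 22.5% and 29.6% for IGFBP3. IGFBP3 was thus found in fewer cells of the high-resolution plates at equal depth as well.

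Any of the 6 binding proteins was found in 84.5% to 91.1% of cells, and IGF1R or INSR in 50.2% to 65.5%. IGFBP3 gave 72.3% and 69.1% of the binding protein UMIs of the low-resolution plates and 35.2% and 44.8% of those of the high-resolution plates. IGFBP6 gave 16.7% and 21.1%, and 42.2% and 33.02%. The mixture of binding protein transcripts was thus mostly IGFBP3 on the low-resolution plates and divided between IGFBP3 and IGFBP6 on the high-resolution ones, where IGFBP6 held the larger share on plate 1.

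The spread between cells was measured as the variance over the mean in cells thinned to 10000 UMIs, a ratio near 1 being what random sampling of molecules gives. For IGFBP3 it was 2.56, 3.28, 1.87 and 3.37, which is 2.09, 2.71, 1.69 and 3.00 times the trend of genes of equal mean and above 97.4%, 98.5%, 96.1% and 98.9% of the genes compared. Single cells held up to 41, 29, 11 and 26 UMIs of IGFBP3, and the top 10% of cells held 43.1% to 52.7% of them. A minority of cells on each plate thus held much of the IGFBP3 signal. This share, taken at full depth, did not set IGFBP3 apart. It was 40.9% to 52.5% for IGF1R, 48.3% to 59.6% for INSR, 36.1% to 50.6% for IGFBP6 and 32.1% to 36.6% for IGF2R.

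IGF2R was below the trend, at 0.958, 0.949, 1.07 and 1.03, or 0.848, 0.844, 0.962 and 0.946 times the trend. This was above 5.98%, 5.65%, 37.1% and 31.5% of the genes compared. In cells thinned to 20000 UMIs, IGF2R was above 27.6%, 37.5%, 17.4% and 43.3% of them, so the plates on which it stood lowest depended on the depth. With no mitochondrial limit IGF2R was at 0.792, 0.973, 0.933 and 1.05 times the trend. Its 202, 179, 189 and 202 positive cells mostly held 1 to 4 UMIs. IGFBP7 could be set against the trend only on the high-resolution plates, where its ratio was 2.84 and 1.92, or 2.68 and 1.82 times the trend. IGFBP4 ranged from 1.05 to 1.51, IGFBP6 from 1.06 to 1.51, IGF1R from 0.968 to 1.44 and INSR from 0.932 to 1.26 times the trend, so that their plates disagreed on whether they exceeded it clearly.

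**Figure D2:**
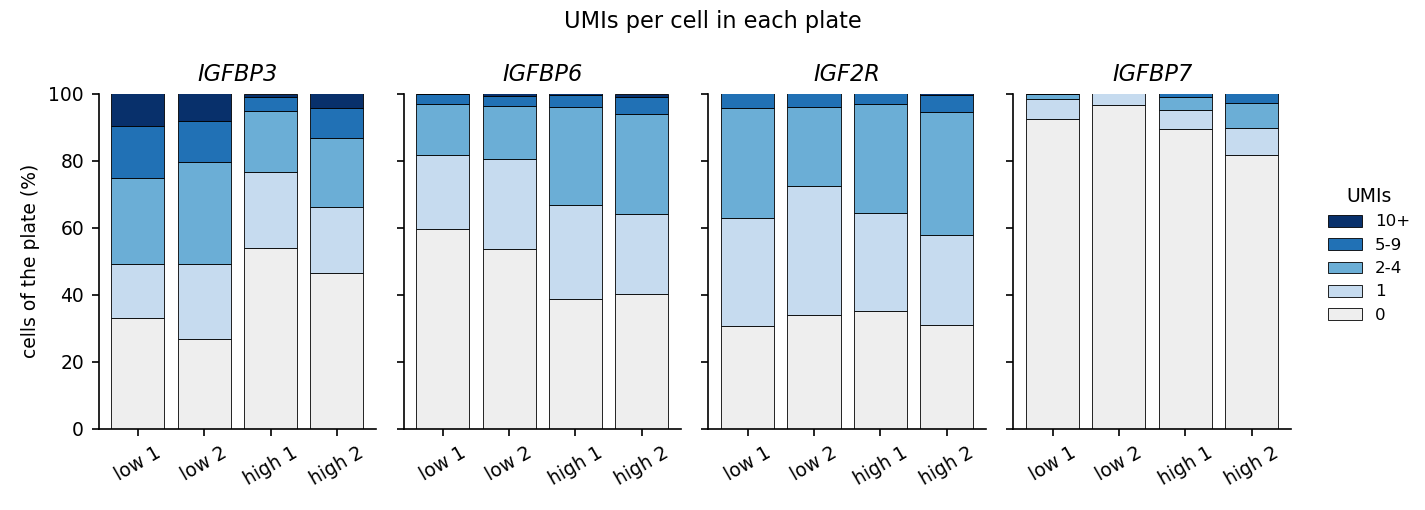
Share of cells (%) by UMIs per cell for 4 genes on each plate, at full depth. Cells with 10 or more IGFBP3 UMIs made up 9.62%, 8.12%, 1.03% and 4.44% of the plates, whereas IGF2R had at most 0.341% of such cells.

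To relate the genes to EMT, each cell was given an EMT score, the mesenchymal minus the epithelial score of Gene Set Variation Analysis over the study's 2 gene lists, of which 63 of 65 and 103 of 115 genes were found and none was a member. The cells of each plate were ranked by this score and divided into 3 groups of equal size, called EMT-low, EMT-mid and EMT-high here, and counts summed over the EMT-high and the EMT-low cells were compared across the 4 plates. CDH1 was at 0.942 to 1.25 in EMT-low and at 0.0230 to 0.0761 in EMT-high cells, and VIM at 0.0389 to 0.0783 and at 1.88 to 4.06. These 2 genes are part of the lists, so they show only what the groups separate.

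Of the 8 members tested, 5 rose and 1 fell from EMT-low to EMT-high cells, where 20.2% of all 11316 genes tested rose and 20.7% fell (40.9% in all). IGFBP7, IGFBP4, IGFBP6, IGF1R and IGF2R rose, IGFBP3 fell, and INSR and IGFBP2 did not pass the test. The median log2 fold change of the 8 was 0.93, beside -0.0013 for all genes.

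IGFBP4 rose on each plate. Its level in EMT-low cells was 0.0142, 0.0146, 0.0146 and 0.0152 and in EMT-high cells 0.192, 0.159, 0.190 and 0.192. Every EMT-high value was above every EMT-low value, and the log2 fold change was 3.35 (SE 0.23, adjusted p = 3.99e-07, edgeR's quasi-likelihood test). The share of cells with a UMI went from 3.30% to 7.22% in EMT-low to 28.9% to 40.2% in EMT-high cells. The EMT-low cells held only 7, 4, 9 and 6 UMIs, and over all plates 26 and 255 UMIs gave a ratio of levels with an exact 95% counting interval of 7.34 to 17.2. At 10000 UMIs per cell the log2 fold change of IGFBP4 was 2.67.

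IGFBP7 had the largest fitted change, from 0.00658, 0.00174, 0.00428 and 0.00860 to 0.0607, 0.0187, 0.179 and 0.263. The EMT-high values did not overlap the EMT-low values, and those of the high-resolution plates stood far above those of the low-resolution plates. The log2 fold change was 4.25 (SE 0.34, adjusted p = 1.57e-06), but the EMT-low cells held only 2, 1, 2 and 4 UMIs. Over all plates, 9 UMIs in EMT-low and 181 in EMT-high cells gave a ratio of 22.6 (exact 95% counting interval 11.6 to 50.1), and low-resolution plate 2 alone, with 1 and 5 UMIs, gave 5.91 (0.661 to 279). With 2 groups of cells in place of 3, the log2 fold change of IGFBP7 was 2.91, and at 10000 UMIs per cell it was 4.94.

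IGFBP6 went from 0.0910, 0.109, 0.166 and 0.123 to 0.436, 0.470, 0.427 and 0.446. The EMT-high values of the 4 plates were close to each other and all above the EMT-low values, with a log2 fold change of 1.64 (SE 0.14, adjusted p = 3.18e-06). EMT-mid cells were at 0.394 and 0.347 on the high-resolution plates, already near the EMT-high cells, and at 0.156 and 0.208 on the low-resolution plates. The groups were cut within each plate, so EMT-mid cells did not have equal scores. Their median EMT score was 0.299 and 0.147 on the high-resolution plates and -0.0180 and -0.188 on the low-resolution plates.

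IGFBP3 went the other way, from 1.38, 1.19, 0.497 and 0.923 in EMT-low to 0.820, 0.753, 0.188 and 0.215 in EMT-high cells. It was lower in the EMT-high cells of each plate, although those of the low-resolution plates were above the EMT-low cells of high-resolution plate 1. The log2 fold change was -1.14 (SE 0.14, adjusted p = 6.53e-05).

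Both IGF receptors rose on each plate. IGF1R, the main signalling receptor of IGF1 and IGF2, went from 0.121, 0.113, 0.139 and 0.124 to 0.231, 0.281, 0.290 and 0.266, with a log2 fold change of 1.08 (SE 0.13, adjusted p = 3.74e-05). IGF2R went from 0.347, 0.262, 0.218 and 0.224 to 0.587, 0.515, 0.421 and 0.431, with a log2 fold change of 0.77 (SE 0.099, adjusted p = 6.96e-05). For both genes the lowest EMT-high value was above the highest EMT-low value.

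INSR, the insulin receptor, was at 0.140, 0.140, 0.160 and 0.106 in EMT-low and at 0.106, 0.0620, 0.133 and 0.113 in EMT-high cells. The groups overlapped, and the log2 fold change of -0.34 (SE 0.24) did not pass the test (adjusted p = 0.294). Among cells at or below the median of both the S and the G2/M score of their plate, INSR fell, at -0.98 (SE 0.30, adjusted p = 0.0134). That was the 1 of 11 alternatives in which INSR passed. In the other 10 it did not, and over all 11 the log2 fold change ranged from -0.98 to -0.019. IGFBP2 was at 0.0209, 0.0392, 0.0386 and 0.0520 against 0.0496, 0.0392, 0.0179 and 0.0304, and its log2 fold change of -0.36 (SE 0.36, adjusted p = 0.443) did not pass either.

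**Figure D3:**
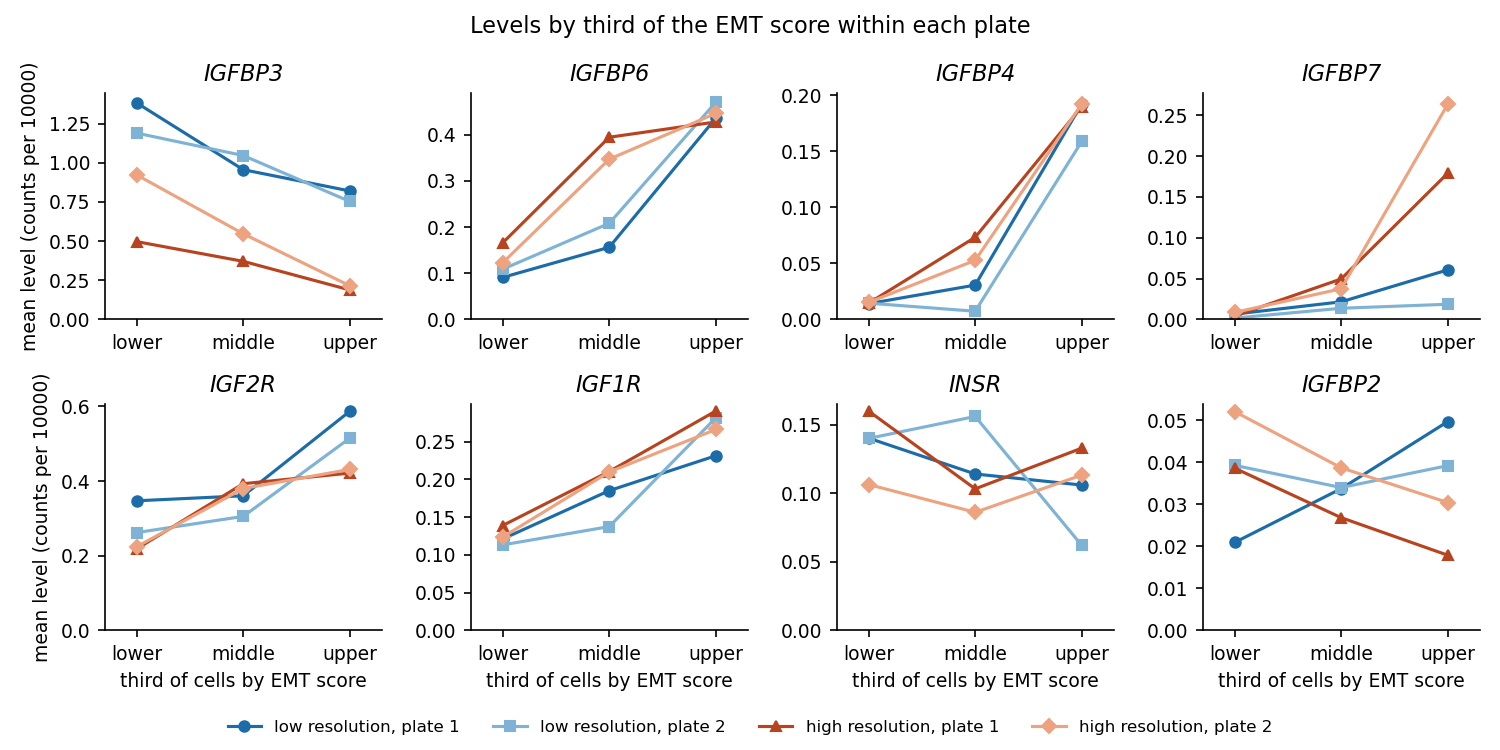
Mean level (counts per 10000) of 8 genes in EMT-low, EMT-mid and EMT-high cells, 1 line per plate, each axis starting at 0. IGFBP4 ends between 0.159 and 0.192 on all plates from a start near 0.015, IGFBP3 declines on all plates, and INSR and IGFBP2 move in different directions on different plates.

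EMT-high cells also differed in quality measures. Their median mitochondrial share was 26.1% to 28.8%, against 31.7% to 33.8% in EMT-low cells, and their mean G2/M score was higher on each plate. IGFBP3 had correlations of -0.317 to -0.154 with the G2/M score and of 0.0385 to 0.181 with the mitochondrial share, each over 271 to 293 cells of a plate. In the cells with low S and G2/M scores, 100 to 135 per plate, IGFBP3 differed by -1.15 on the log2 scale. IGFBP4, IGFBP6, IGFBP7, IGF1R and IGF2R differed there by 3.63, 1.73, 4.78, 1.26 and 1.10, and all of these passed the test. The part of the mitochondrial share, and of cell cycle differences left within those cells, was not tested.

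The contrast between EMT-high and EMT-low cells was also compared between the experiments. None of the 8 members passed this test with edgeR, nor did IGFBP3, IGFBP6 and IGF2R with DESeq2, which gave the other members no adjusted p. Over all genes, 2.56% passed with edgeR (0.725% upward and 1.84% downward), and 2 members, IGFBP3 and IGFBP6, had an unadjusted p under 0.05. The log2 fold change of IGFBP3 differed by -0.51 (SE 0.23, adjusted p = 0.304) on the high-resolution plates, and in the alternatives from -0.88 at 10000 UMIs per cell (adjusted p = 0.0946) to 0.01 without high-resolution plate 2. That of IGFBP6 differed by -0.58 (SE 0.24, adjusted p = 0.261). IGFBP7 had a difference of 1.45 with an SE of 1.09 (adjusted p = 0.583), which is a wide error.

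Across single cells, Spearman's rho with the EMT score was also computed. These values describe cells that share a library, and depth and sparse counts limit their size, so no p is given. IGFBP6 had a rho of 0.352, 0.360, 0.304 and 0.380, and it was the 1 member with a size of at least 0.3 on all plates among the 5 members found in at least 20% of cells of each plate. Of 7955 genes outside the EMT lists that were found that often, 2.33% had such a rho upward and 2.43% downward, and IGFBP6 ranked at 240 by its mean. At 10000 UMIs per cell, the rho of IGFBP6 was 0.175, 0.277, 0.172 and 0.249.

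IGFBP4, found in too few cells of the low-resolution plates for that count, had 0.286, 0.350, 0.377 and 0.395, and 0.153, 0.114, 0.240 and 0.229 in thinned cells. IGF2R reached 0.210 to 0.304, IGF1R 0.120 to 0.267 and IGFBP7 0.108 to 0.362, all positive on each plate, also at 10000 UMIs per cell, where the means over plates were 0.131 for IGF2R and 0.119 for IGF1R and IGFBP7 ranged from 0.0685 to 0.240. IGFBP3 was negative on each plate, at -0.248, -0.157, -0.0862 and -0.252. INSR, at -0.200 to 0.0650, and IGFBP2, at -0.101 to 0.0567, had no common sign.

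With single markers, IGFBP6 was correlated with FN1 at 0.307 to 0.437 and with EPCAM at -0.359 to -0.268. IGFBP4 was correlated with CDH1 at -0.358 to -0.237, and IGFBP7 with VIM at 0.120, 0.187, 0.273 and 0.405, but at -0.0890, 0.153, 0.219 and 0.188 in cells thinned to 10000 UMIs. IGFBP3 was correlated with CDH1 at 0.0774 to 0.210 and with EPCAM at only 0.0435 to 0.106, so its relation to the 2 epithelial markers was weaker than that of IGFBP6 or IGFBP4, whose signs were opposite. FN1 is itself in the mesenchymal list.

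**Figure D4:**
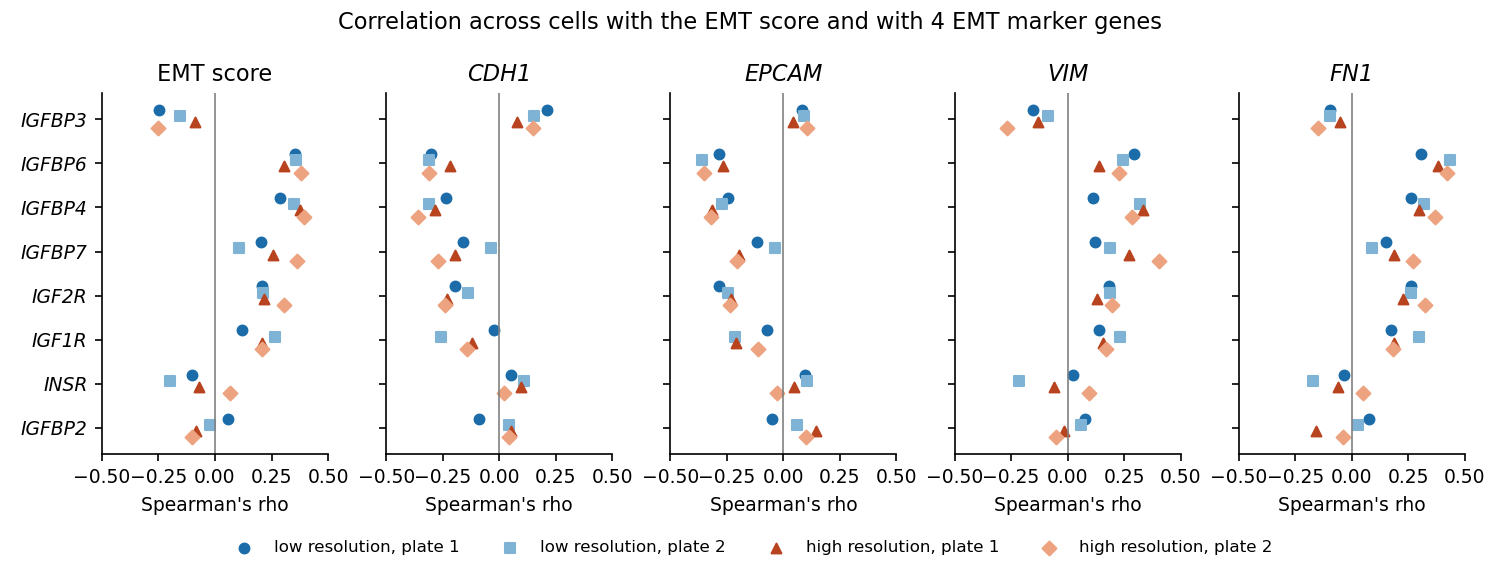
Spearman's rho across the cells of each plate (271 to 293 cells) between 8 genes and the EMT score, CDH1, EPCAM, VIM and FN1, 1 point per plate. IGFBP6, IGFBP4, IGF2R and IGF1R lie left of 0 for CDH1 and EPCAM and right of 0 for VIM and FN1 on all plates, and IGFBP3 lies on the other side; in thinned cells 3 of these values turned sign, namely IGFBP6 with VIM on high-resolution plate 1, IGF1R with CDH1 on high-resolution plate 1 and IGFBP3 with VIM on low-resolution plate 2.

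Members were only weakly correlated with each other. The mean rho over plates was 0.154 for IGFBP4 and IGFBP6 and 0.151 for IGFBP6 and IGF2R, the 2 highest pairs, and -0.106 for IGFBP3 and IGFBP6, the lowest. At 10000 UMIs per cell these 3 means were 0.0393, 0.00686 and -0.0693. IGF1R and INSR, which can form hybrid receptors, had a mean rho of 0.0110, and 10.3% to 18.9% of cells held a UMI of both.

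The genes most like each member were sought among 8026 others found in at least 20% of cells of each plate, by the mean rho over plates. For IGFBP3 they were PTTG1IP (0.383), CTSD, the lysosomal protease cathepsin D (0.383), and C4orf3 (0.358), and the least like was PFN1, profilin (-0.347). For IGFBP6 they were FN1 (0.387), HTRA1, a secreted protease (0.379), and SERPINE2, a secreted protease inhibitor (0.377), with AZGP1 at the other end (-0.360). HTRA1 and CTSD, both on the list of IGFBP proteases, thus stood near IGFBP6 and near IGFBP3 at full depth. In thinned cells the mean rho was 0.195 for IGFBP6 and HTRA1 and 0.284 for IGFBP3 and CTSD. HTRA1 and CTSD were themselves correlated with the EMT score, at a mean rho of 0.705 and -0.496. Whether either pair is alike apart from the EMT score was not tested.

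For IGF1R, HTRA1 (0.228) and SPOCK1 (0.228) were among the 3 most like genes, and the least like was KRT16 (-0.210). For IGF2R they were HIPK2 (0.274), FN1 (0.270) and SQSTM1 (0.265), with S100A14 lowest (-0.249). INSR had no gene above 0.163 (YPEL3), ahead of SPAG1 (0.148) and UBR7 (0.146), with GTF2A2 lowest (-0.141).

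Among 51 other genes of the pathway, 40 were tested between EMT-high and EMT-low cells, of which 20 rose, 6 fell and 14 did not pass, where 20.2% of all genes tested rose and 20.7% fell. Without the genes of the EMT lists, 18 of 38 rose and 6 fell. Of the ligands, IGF1 had 2 UMIs on the 4 plates together, and IGF2 and INS had no row under their symbols on any plate. The carriers IGFBP1 and IGFALS had 2 UMIs each.

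All 6 tested proteases and protease inhibitors of the list passed, 5 upward and CTSD downward, and of the 3 surface partners of binding proteins 2 rose and 1 fell, beside 40.9% of all genes tested that passed in either direction. The 5 largest changes of the 51 genes were those of LRP1, PAPPA, HTRA1, STC2 and GRB10. LRP1, an endocytic receptor that binds IGFBP3, went from 0.0220, 0.0435, 0.0184 and 0.0168 to 0.331, 0.313, 0.199 and 0.184, a log2 fold change of 3.19 (SE 0.25, adjusted p = 9.95e-07). PAPPA, which cleaves IGFBP4, went from 0.00931, 0.0139, 0.0538 and 0.0613 to 0.559, 0.600, 0.254 and 0.330, a log2 fold change of 3.01 (SE 0.40, adjusted p = 8.57e-05). Its EMT-high values on the high-resolution plates lay below those on the low-resolution plates, and the contrast itself differed between the experiments (-3.19, SE 0.39, adjusted p = 0.000837).

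HTRA1 had a log2 fold change of 2.695 (SE 0.11, adjusted p = 5.99e-09) and STC2, an inhibitor of PAPPA, one of 2.40 (SE 0.094, adjusted p = 4.9e-09). GRB10, an adaptor that restrains insulin and IGF receptors, had 2.38 (SE 0.18, adjusted p = 7.98e-07). CTSD, the gene near IGFBP3, fell by 1.29 (SE 0.092, adjusted p = 5.41e-07), from 10.2, 12.1, 7.07 and 8.91 in EMT-low to 6.16, 5.93, 2.41 and 2.91 in EMT-high cells. Of the 16 kinases and phosphatases, 3 rose, 2 fell and 11 did not pass, a share near or below the 20.2% and 20.7% of all genes.

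Between the experiments, 1 member rose and 1 fell on the high-resolution plates, out of 8 tested, where 6.25% of 12429 genes rose and 6.19% fell (12.4% in all). IGFBP3, at 1.05 and 0.997 against 0.352 and 0.563, was lower (log2 fold change -1.31, SE 0.17, adjusted p = 0.000793). IGFBP7, at 0.0296 and 0.0114 against 0.0776 and 0.103, was higher with a log2 fold change of 2.09 (SE 0.39, adjusted p = 0.00521). Without low-resolution plate 1, which leaves the 3 plates of one flow cell and assumes that the lone plate varies like the others, the values were -1.24 for IGFBP3 and 3.14 for IGFBP7. Without low-resolution plate 2 they were -1.37 and 1.51, so the size of the IGFBP7 change depended on which low-resolution plate was used.

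IGFBP6 was at 0.228 and 0.262 against 0.329 and 0.305, and its log2 fold change of 0.46 (SE 0.15) missed the threshold (adjusted p = 0.0575). It passed with replicate number as a block (adjusted p = 0.0404), with no filter (0.0347) and without low-resolution plate 2 (0.0332), and did not pass in the other 8 of 11 alternatives, where the adjusted p reached 0.825 among EMT-high cells alone. IGF1R (0.24, SE 0.16), IGFBP4 (0.26, SE 0.22), IGF2R (-0.15, SE 0.14), INSR (0.05, SE 0.22) and IGFBP2 (-0.18, SE 0.30) did not pass, with adjusted p from 0.341 to 0.921.

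The 2 calls between the experiments were also computed within groups of the EMT score, an alternative chosen after seeing the data. IGFBP3 was lower on the high-resolution plates among EMT-low cells (log2 fold change -1.16, SE 0.23) and among EMT-high cells (log2 fold change -1.69, SE 0.17). IGFBP7 was higher among EMT-high cells (2.15, SE 0.44) and was below the filter on low counts among EMT-low cells. IGFBP6 had 0.69 (SE 0.24, adjusted p = 0.084) among EMT-low and 0.08 (SE 0.17, adjusted p = 0.825) among EMT-high cells. Groups were cut within each plate, so they do not mark equal scores in the 2 experiments. The width of the tagged bands and the patch cannot be told apart from the experiment. The sequencing run can be told apart only in part, since by their names low-resolution plate 2 and both high-resolution plates shared a flow cell. The part of the run in these differences was not tested.

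**Figure D5:**
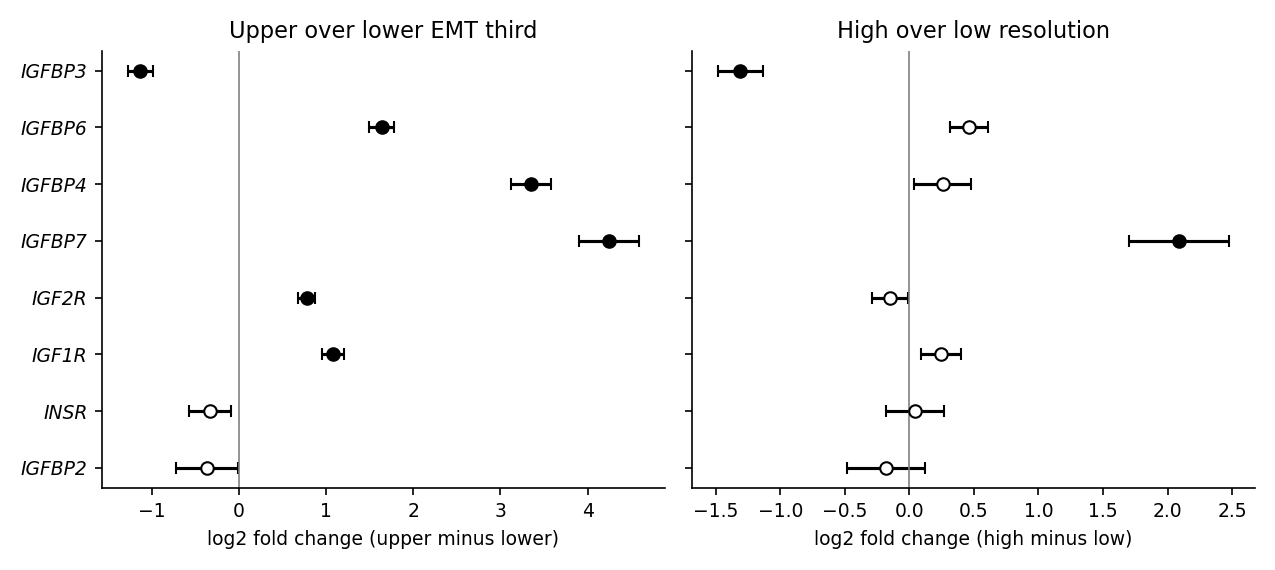
Log2 fold changes of 8 genes between EMT-high and EMT-low cells (left) and between the high- and the low-resolution plates (right), with bars of 1 SE and filled points where the adjusted p is under 0.05. IGFBP3 is filled left of 0 in both panels and IGFBP7 right of 0 in both, while IGFBP4, IGFBP6, IGF1R and IGF2R are filled only in the left panel.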

How the data were processed

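Single-cell transcriptomes of 4 MCF10A patches were analysed, 2 per experiment. The authors deposited expected counts for each gene in each well, which are UMI counts adjusted for chance repeats among 4096 possible UMIs, with no scaling. Undoing that adjustment gave whole UMIs to within 1e-06. The submitters' processing notes name STAR 2.7.3a, Seurat 4 and hg38, and the annotation is not given in the sources used here. Spike-in rows (90; 0.847% to 1.39% of a plate's counts) stayed out of library sizes.

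As in the study, wells passed with 2000 to 9000 detected features and a mitochondrial share below 40%. This leaves 562 of 768 wells at low and 584 of 768 at high resolution, fewer than the numbers of analysed cells that the paper gives. Doublets were not called beyond the feature maximum. Counts were normalized to 10000 per cell and log-transformed for correlations, and E and M scores were computed by GSVA as reimplemented here, with a Gaussian kernel and the plates of an experiment scored together. In simulated cells the score followed a known gradient with a rho of at least 0.976, and 57.5% to 68.0% of changed genes reached a rho of 0.3. Trends of variance over mean were lowess fits in statsmodels 0.14.6 over genes with a thinned mean of at least 0.05.

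Expected counts summed over cells were rounded and tested with edgeR 4.0.16 (TMM, filterByExpr, quasi-likelihood test, Benjamini-Hochberg over all genes, threshold 0.05), with plate as a block for EMT-high against EMT-low cells. A standard error is the fold change over the root of its F value. In simulations of 2-fold changes, 81.5% of changed genes were recovered between experiments and 86.0% between EMT groups at a dispersion of 0.01, but 17.0% and 53.5% at 0.05. DESeq2 1.42.0 was an alternative.

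The members, gene lists and tests were chosen with earlier results of these data known. Named were all members, the 5 pathway genes with the largest changes between EMT groups, the 3 most and 1 least similar genes of each member found in 20% of cells of every plate, and 4 EMT markers; IGF1, IGFBP1 and IGFALS are named outside this rule, as are the values of CTSD between EMT groups. A gene that the rule would name is not reported here. The labels call the plates of an experiment replicates, which the study describes as biological. Intervals of shares and ratios are exact 95% intervals and cover counting error only.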

Additional observations from a re-analysis of the deposited data

How the results depend on the processing

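The 6 member calls between EMT groups and the 2 calls between experiments kept their direction and passed under each alternative run, except that IGFBP7 could not be tested among EMT-low cells alone or in the low-resolution plates alone. The 1546 genes called between experiments became 2008 with replicate number as a block, which had no effect on the calls of members other than IGFBP6. Replicate deviations of the 2 experiments had a correlation of -0.0237. This 1 value cannot show whether plates of the same number shared more than the number. The count was 994 at 10000 UMIs per cell, 572 among EMT-high cells alone, and 987 to 1323 without 1 plate each. The 4625 genes called between EMT groups became 2917 at 10000 UMIs. The 290 genes whose contrast differed between experiments became 56 with DESeq2 (0.495%, although 6362 of the 11316 genes had no adjusted p there), 158 (1.84%) at 10000 UMIs and 408 (3.65%) with a mean z-score difference as the EMT score, and, as a share of the genes tested, went from 2.56% to between 0.655% and 1.16% without 1 plate each. The count of members following the EMT score went from 1 to 0 at 10000 UMIs, with mitochondrial counts out of the library size, and without high-resolution plate 2 (0 to 1 over the 4 plates left out). Except where fewer cells or genes were tested by construction, the cause was not tested. Depth limits IGFBP5, IGFBP2 and the EMT-low cells of IGFBP7.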
